A study of Mus musculus with 4 samples.

Results

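The serum response factor pathway was followed in mouse aortic vascular smooth muscle cells (VSMCs) through 10 genes, taken by symbol from the 48587 gene symbols of the count table. They are *Srf*, the myocardin family (*Myocd*, *Mkl1* and *Mkl2*), the ternary complex factors *Elk1*, *Elk3* and *Elk4*, and the MEF2 factors *Mef2a*, *Mef2c* and *Mef2d*. *Mkl1* and *Mkl2* are the older symbols of *Mrtfa* and *Mrtfb*. All 10 genes passed the filter on low counts. None of the 10 changed past the test threshold with the *Mettl14* hairpin. In 8 of the 10, all but *Elk1* and *Elk4*, the libraries lettered A and B differed more than the hairpins did. The same held for 62.3% of all tested genes.

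The cells were primary VSMCs that grew out of descending aortas of wild-type C57BL/6J mice and were kept in serum-containing medium. Before the outgrowth the adventitia had been removed with enzymes and the endothelium scraped. The shCTR group received a lentivirus with a hairpin against a plant microRNA sequence. The shMettl14 group received a lentivirus with a hairpin against *Mettl14*, whose product forms the m6A methyltransferase with METTL3. Both groups thus carried a vector, and the labels name 1 library A and 1 library B in each group. The labels do not say what the letters stand for or whether each culture came from separate animals, so the errors below measure the spread between these libraries, which may be technical. Poly-A-enriched RNA was sequenced from both ends, and the values are read counts per gene.

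Serum response factor binds a short DNA element, the CArG box, as a dimer and takes its instructions from cofactors. Myocardin, found in smooth and cardiac muscle, and the more widely expressed MRTF proteins encoded by *Mkl1* and *Mkl2* drive contractile and cytoskeletal genes. The MRTFs are held in the cytoplasm by monomeric actin and enter the nucleus when actin polymerizes. ELK proteins are ETS factors that are phosphorylated by ERK and bring SRF to immediate early genes such as *Fos* and *Egr1*, so that both kinds of cofactor compete for SRF. The MEF2 factors share the MADS-box DNA-binding fold with SRF and are restrained by class IIa histone deacetylases. In VSMCs the balance among these cofactors is known to set contractile against proliferative gene expression.

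Some promoters of the genes hold sequence matches to elements for these factors, and the stretches with a match are shown because the elements belong to factors of the same families. RefSeq promoter windows of GRCm38.p6 were found for 9 of the 10 genes, all but *Myocd*. A match was present in *Srf*, *Elk4*, *Mkl2* and *Mef2a* and in none of the windows of *Mkl1*, *Elk1*, *Elk3*, *Mef2c* and *Mef2d*. The windows reach from 250 bases before to 50 bases after each start. Capitals mark the matches, and all stretches read 5′ to 3′ on the strand of the gene. The first, at chr17:46556193-46556312 on the minus strand, lies before the start of *Srf* and holds 2 CArG boxes and 1 copy of the ETS word CCGGAAG.
Srf: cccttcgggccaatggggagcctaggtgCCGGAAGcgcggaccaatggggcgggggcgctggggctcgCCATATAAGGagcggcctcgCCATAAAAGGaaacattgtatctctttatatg
The *Elk4* window holds the same ETS word in the stretch chr1:132007542-132007568 on the plus strand.
Elk4: ggcccctcccCCGGAAGtgacgctcgc
One of the *Mkl2* windows holds a MEF2 box in the stretch chr16:13358246-13358275 on the plus strand.
Mkl2: gctagagattTTATTTTTAActgcttgact
The *Mef2a* window holds a MEF2 box across the start itself, in the stretch chr7:67372841-67372870 on the minus strand.
Mef2a: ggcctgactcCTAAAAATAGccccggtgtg

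The motifs were searched on both strands and do not overlap one another in these stretches. A CArG box was present in 1 of the 9 genes, against 1.81% of the 27025 genes with a window. A MEF2 box was present in 2 of the 9, against 3.70% of all genes with a window, and CCGGAAG in 2 of the 9, against 9.93%. Among the 17 MRTF-SRF target genes with a window, 4 held a CArG box (*Cnn2*, *Myl9*, *Vcl* and *Fhl2*). The *Vcl* gene, which encodes the focal adhesion protein vinculin, holds it far upstream, at chr14:20929161-20929190 on the plus strand.
Vcl: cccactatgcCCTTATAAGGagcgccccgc
These matches are descriptions of the sequence, and binding was not measured.

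The libraries held between 114343653 and 124815868 counts, where 3 counts, the most that a gene at 0 could hide, equal 0.0240 to 0.0262 CPM of the library total, by counting error only. Levels below are normalized CPM, which are counts scaled to the effective library size after TMM. *Mettl14* itself was at 18.0 and 19.9 CPM in shCTR A and B and at 4.60 and 4.37 in shMettl14 A and B, below shCTR in both letters, with a log2 fold change of −2.08 (standard error 0.25), an unadjusted edgeR p of 0.00039 and an adjusted p that did not pass 0.05. Of the 8 VSMC markers checked, 8 were counted in every library, with *Acta2* between 2073 and 3547 CPM. Endothelial markers were also abundant: all 10 were counted in every library, and their summed level was 2216 and 4123 CPM with shCTR and 2032 and 2671 CPM with shMettl14. The summed level of 8 fibroblast markers was between 394 and 525 CPM. That of 9 leukocyte markers was between 6.86 and 10.4 CPM. The 18 striated muscle markers summed to 45.9 and 29.6 CPM with shCTR and 17.8 and 27.2 CPM with shMettl14, and the skeletal lineage factors *Myog* and *Myod1* were at 0 in all libraries. In RNA from whole cultures, fewer cells of a type and less RNA per cell cannot be told apart.

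To ask whether the *Mettl14* hairpin moved these genes, TMM-normalized counts of shMettl14 were set against those of shCTR by the quasi-likelihood test of edgeR, with Benjamini-Hochberg adjustment over the 18916 genes that passed the filter. Of the 10 genes, 0 had an adjusted p under 0.05, and the background was 0.0% of all tested genes. At an unadjusted p under 0.05 there were likewise 0 of 10, against 1.67% of all tested genes, and the unadjusted p of the members from edgeR lay between 0.395 and 0.997. DESeq2 also gave 0 of 10 at an adjusted p under 0.05, against 0.0172% of all genes it tested, and 0 of 10 at an unadjusted p under 0.05, against 1.52%. The fitted change was downward in 8 and upward in 2, with a median log2 fold change of −0.022 against 0.0094 for all tested genes. Within both letters 3 genes were lower (*Mkl1*, *Elk4* and *Mef2a*), against 27.7% of all tested genes. *Elk1* was the 1 gene higher within both letters, against 30.0% of all tested genes. The hairpin groups did not overlap in 2 of the 10, *Elk1* and *Elk4*, against 28.0% of all tested genes. With 2 libraries a group, the smallest two-sided p of an exact permutation test is 0.333.

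**Figure D1:**
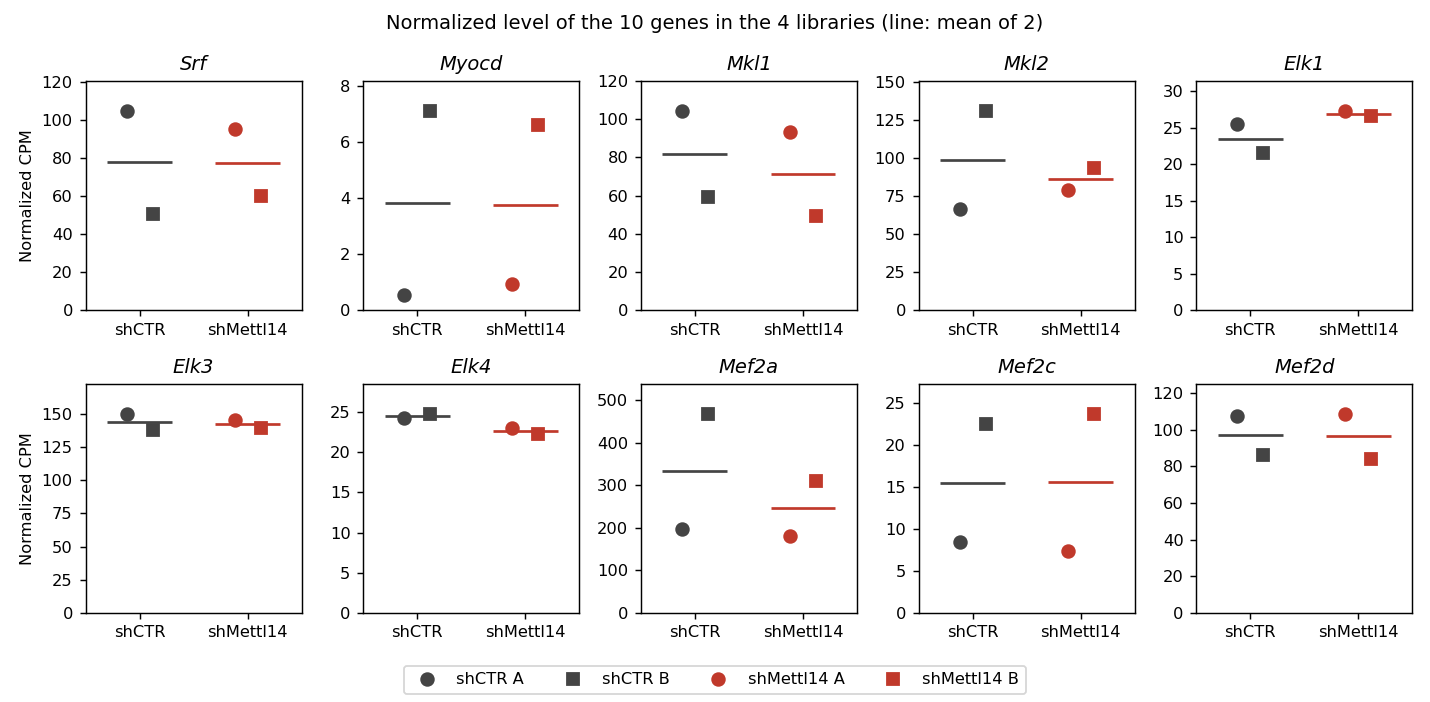
Normalized CPM of each of the 10 genes in the 4 libraries, with circles for letter A, squares for letter B, grey for shCTR, red for shMettl14 and a line at the mean of 2 libraries. In the panels of *Myocd*, *Mef2a* and *Mef2c* the B libraries sit above the A libraries with both hairpins, and in those of *Srf* and *Mkl1* below them.

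*Srf* (ENSMUSG00000015605, chromosome 17 from 46548329 to 46556175, minus strand of GRCm38), the DNA-binding partner that the myocardin and ELK families share, was at 105 and 50.6 normalized CPM in shCTR A and B and at 95.3 and 60.1 in shMettl14 A and B. Both A libraries were above both B libraries, and the hairpin groups overlapped. The means were 77.8 ± 38.4 CPM with shCTR and 77.7 ± 24.9 with shMettl14 (SD, n = 2 libraries each). *Srf* thus had a fitted log2 fold change of −0.0016 (standard error 0.43), with a 95% interval from −1.11 to 1.11. This fit has no term for the letters, and it does not exclude a change of up to about this size in either direction. With A and B as terms of the fit the value was 0.054 (standard error 0.17), but no label says that a letter marks 1 culture. *Srf* was lower with the hairpin within A, with a log2 ratio of −0.14, and higher within B, with 0.25. With 1 library left out the value ranged from −0.44 without shCTR B to 0.62 without shCTR A.

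*Myocd* (ENSMUSG00000020542, chromosome 11 from 65176561 to 65269989, minus strand), the muscle-restricted coactivator, was the least abundant member, with 62 and 767 counts in shCTR A and B and 109 and 859 counts in shMettl14 A and B. After normalization these were 0.546 and 7.10 CPM with shCTR and 0.918 and 6.60 CPM with shMettl14. The B libraries were far above the A libraries, by 13.0-fold with shCTR and 7.20-fold with shMettl14. Of all tested genes, 1.20% differed at least as much between the letters. The log2 fold change with the *Mettl14* hairpin was −0.023 (standard error 1.38), with a 95% interval from −3.57 to 3.53, which is the widest of the 10 genes. Within letter A *Myocd* was 1.68 times the shCTR level, with an exact binomial interval from 1.22 to 2.34, and within letter B it was 0.930 times that level, from 0.843 to 1.03. These intervals cover counting error only. Its log2 fold change was 2.78 without shCTR B, 0.80 without shMettl14 A, −0.91 without shCTR A and −2.05 without shMettl14 B, and these fits compare unequal numbers of the letters.

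*Mkl1* (ENSMUSG00000042292, chromosome 15 from 81012281 to 81190757, minus strand) encodes MRTF-A, the actin-regulated coactivator. It was at 104 and 59.0 CPM in shCTR A and B and at 93.3 and 49.1 CPM in shMettl14 A and B. Like *Srf*, *Mkl1* was higher in both A libraries than in both B libraries. Its log2 fold change was −0.20 (standard error 0.43, 95% interval from −1.30 to 0.91), with log2 ratios of −0.16 within A and −0.27 within B. With 1 library left out it ranged from −0.73 without shMettl14 A to 0.27 without shCTR A.

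*Mkl2* (ENSMUSG00000009569, chromosome 16 from 13256481 to 13417529, plus strand) encodes MRTF-B and showed the opposite order of letters. It was at 66.7 and 131 CPM in shCTR A and B and at 79.3 and 93.4 CPM in shMettl14 A and B, so that both shMettl14 libraries lay between the shCTR libraries. Its log2 fold change was −0.20 (standard error 0.36, 95% interval from −1.13 to 0.74), from log2 ratios of 0.25 within A and −0.49 within B. It was −0.60 without shCTR A and 0.37 without shCTR B. Between the letters the paralogs *Mkl1* and *Mkl2* thus differed in opposite directions. The log2 differences of B from A were −0.82 and 0.97 with shCTR and −0.93 and 0.24 with shMettl14.

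**Figure D2:**
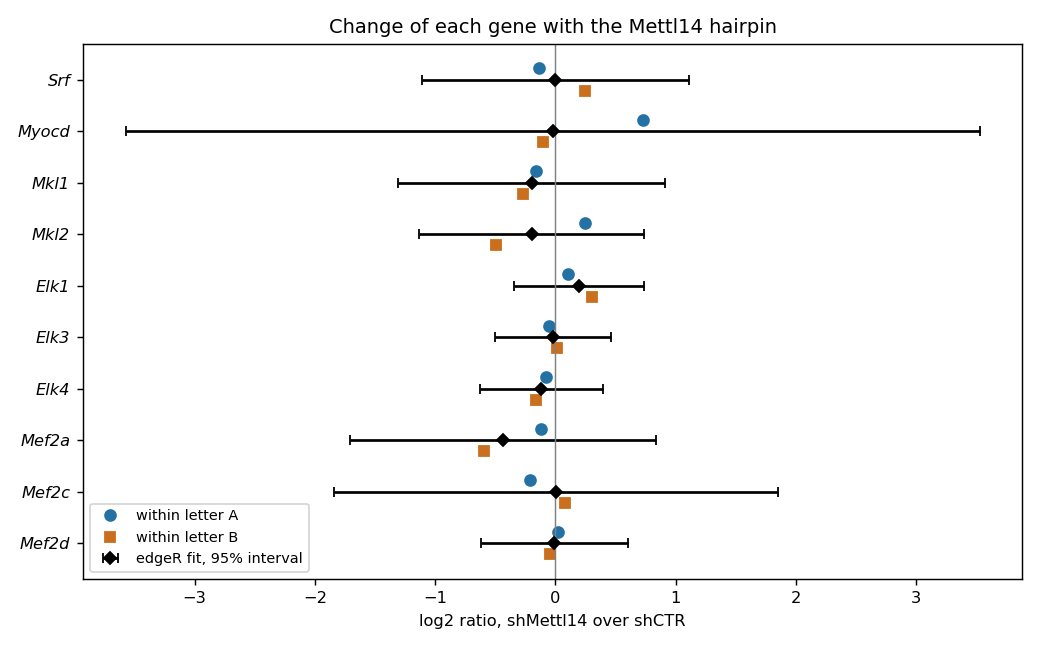
Log2 ratio of shMettl14 over shCTR for each gene, with diamonds and bars for the edgeR estimate and its 95% interval, circles for the ratio within letter A and squares for that within letter B. All 10 intervals include 0, from the narrowest for *Elk3* to the widest for *Myocd*.

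Between the letters the ternary complex factors were the steadiest of the 10 genes. *Elk3* (ENSMUSG00000008398, chromosome 10 from 93247414 to 93311135, minus strand) encodes NET, a factor that represses SRF targets until it is phosphorylated. It was at 150 and 138 CPM in shCTR A and B and at 145 and 139 CPM in shMettl14 A and B. All 4 libraries were thus alike, and both shMettl14 libraries lay between the shCTR libraries. The log2 fold change of *Elk3* was −0.021 (standard error 0.19) with a 95% interval from −0.50 to 0.46, and with 1 library left out it ranged from −0.084 without shCTR B to 0.047 without shCTR A. Of its exon bases, 6.95% overlap *Cdk17* on the other strand.

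*Elk1* (ENSMUSG00000009406, chromosome X from 20933395 to 20950608, minus strand), the first-described ternary complex factor, was at 25.4 and 21.6 CPM in shCTR A and B and at 27.3 and 26.6 CPM in shMettl14 A and B. Both shMettl14 libraries were above both shCTR libraries, an order that 14.7% of all tested genes showed. The means were 23.5 ± 2.73 and 26.9 ± 0.516 CPM (SD, n = 2 libraries each), a log2 fold change of 0.20 (standard error 0.21, 95% interval from −0.35 to 0.74). The difference was smaller than its standard error and did not pass the test. Without shCTR B it was 0.079, and without shCTR A it was 0.32.

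*Elk4* (ENSMUSG00000026436, chromosome 1 from 132007607 to 132032612, plus strand) encodes SAP-1. It was at 24.3 and 24.8 CPM in shCTR A and B and at 23.0 and 22.2 CPM in shMettl14 A and B. Both shMettl14 libraries were below both shCTR libraries, as in 13.3% of all tested genes, and *Elk4* differed least between the letters of the 10 genes. Its log2 fold change was −0.12 (standard error 0.20, 95% interval from −0.63 to 0.39), and it was negative with each library left out in turn.

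*Mef2a* (ENSMUSG00000030557, chromosome 7 from 67231163 to 67372858, minus strand), the MEF2 gene with the highest counts, was at 198 and 468 CPM in shCTR A and B and at 181 and 310 CPM in shMettl14 A and B. The B libraries were above the A libraries, by 2.37-fold with shCTR and 1.71-fold with shMettl14, and the hairpin groups overlapped. Its log2 fold change of −0.44 (standard error 0.49, 95% interval from −1.71 to 0.84) was the largest fitted change of the 10 genes and was smaller than its standard error. Within A the log2 ratio of *Mef2a* was −0.12 and within B it was −0.59. Without shCTR B the value was 0.31 and without shCTR A it was −0.92 (edgeR unadjusted p = 0.048). Of the 10 endothelial markers, 6 were also higher in B with both hairpins and 2 (*Tie1* and *Egfl7*) lower, with the widest difference in *Emcn*, at 649 and 2100 CPM in shCTR A and B and 484 and 1077 CPM in shMettl14 A and B. Their part in the *Mef2a* values was not tested.

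*Mef2c* (ENSMUSG00000005583, chromosome 13 from 83504034 to 83667080, plus strand), a MEF2 gene used in muscle and endothelium, was at 8.44 and 22.5 CPM in shCTR A and B and at 7.31 and 23.7 CPM in shMettl14 A and B. It was higher in B by 2.66-fold with shCTR and 3.24-fold with shMettl14. Within a letter the hairpin changed little, with a log2 ratio of −0.21 within A and of 0.077 within B. The log2 fold change was 0.0046 (standard error 0.72, 95% interval from −1.84 to 1.85), and with 1 library left out it ranged from −1.07 without shMettl14 B to 0.87 without shCTR B. The same 10 endothelial markers had a median log2 difference of 0.40 between B and A with shCTR and 0.17 with shMettl14, and their part in *Mef2c* was not tested.

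*Mef2d* (ENSMUSG00000001419, chromosome 3 from 88142372 to 88172086, plus strand), the broadly expressed MEF2 gene, was at 107 and 86.4 CPM in shCTR A and B and at 109 and 83.9 CPM in shMettl14 A and B. The A libraries were higher than the B libraries, and within a letter the hairpin libraries were close to each other, with a log2 ratio of 0.018 within A and of −0.043 within B. Its log2 fold change was −0.0088 (standard error 0.24, 95% interval from −0.62 to 0.60), and with 1 library left out it ranged from −0.21 without shMettl14 A to 0.17 without shMettl14 B. Of its exon bases, 8.87% overlap *1700113A16Rik* on the other strand, and whether the counting used strand is not given in the sources used here.

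**Figure D3:**
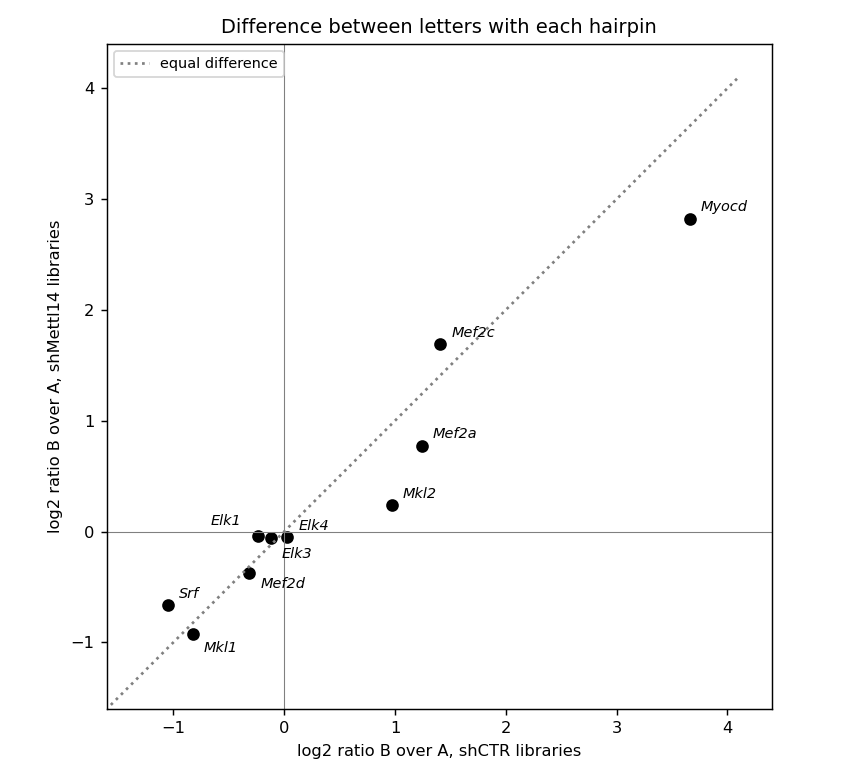
Log2 ratio of B over A for each gene, with the shCTR libraries on the horizontal and the shMettl14 libraries on the vertical axis and a dotted line at equal ratios. *Myocd* lies farthest from 0, at 3.66 and 2.82, *Srf* and *Mkl1* lie below 0 on both axes, and the 3 ELK genes lie near 0.

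Between the letters the members went both ways, in shares near those of all tested genes. *Myocd*, *Mkl2*, *Mef2a* and *Mef2c* were higher in B with both hairpins, against 35.5% of all tested genes. *Srf*, *Mkl1*, *Mef2d*, *Elk1* and *Elk3* were lower in B with both, against 36.7%, and *Elk4* was in neither set. Differences at least as large as those of *Mef2c*, *Mef2a*, *Mkl1* and *Srf* were found in 8.81%, 18.8%, 23.4% and 24.1% of all tested genes. The mean size of the letter difference over the 2 hairpins was larger than that of the hairpin difference over the 2 letters in 8 of the 10 genes, against 62.3% of all tested genes. *Elk1* and *Elk4* were the exceptions. The median of the mean absolute letter difference was 0.73 on the log2 scale over the 10 genes and 0.45 over all tested genes. That of the hairpin difference was 0.20 and 0.31. Of the 22 contractile and cytoskeletal targets described further on, 6 were higher and 9 lower in B with both hairpins, so they followed no single order of letters.

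Levels between genes were compared per length, as normalized CPM per kb of the union of exons. Averaged over the 4 libraries, *Elk3* was at 31.5, *Srf* at 26.9, *Mef2a* at 19.7, *Mef2d* at 16.2, *Mkl1* at 12.5 and *Mkl2* at 10.3 CPM per kb. The ranges of neighbours in this order overlapped down to *Mkl2*. *Elk1* followed at 4.68 and *Elk4* at 3.68 CPM per kb, with ranges apart from each other and from those next to them. *Mef2c* was at 0.985 and *Myocd* at 0.590 CPM per kb, and their ranges over the libraries overlapped. The place of *Mef2a* rests on its gene model: the union of its exons is 14.7 kb and its longest coding transcript 5.54 kb, and with the latter *Mef2a* was first of the 10, at 52.3 CPM per kb.

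Shares of paralogs were taken within each family. *Mkl1* made up 69.5% of the summed CPM per kb of the myocardin family in shCTR A and 63.0% in shMettl14 A, but 38.1% in shCTR B and 41.3% in shMettl14 B. *Mkl2* made up 30.2% and 36.4% in the A libraries and 57.5% and 53.4% in the B libraries of shCTR and shMettl14. *Myocd* stayed a minor part, at 0.346% and 0.590% in A and at 4.36% and 5.29% in B. The family sum was 24.6 and 25.4 CPM per kb in shCTR A and B and 24.2 and 19.5 in shMettl14 A and B. Thus in both hairpin groups the more abundant MRTF per kb of exon union was *Mkl1* in A and *Mkl2* in B. Averaged over the libraries *Mkl1* held 53.0% and *Mkl2* 44.4%. With the longest coding transcript as the length they held 58.5% and 38.8%, and without gene length 44.4% and 53.4%, so their order depends on the length used.

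In the MEF2 family *Mef2a* held 42.1% and 66.8% in shCTR A and B and 39.9% and 57.7% in shMettl14 A and B. *Mef2d* held 56.2% and 30.2% in shCTR A and B and 58.6% and 38.2% in shMettl14 A and B, and *Mef2c* at most 4.11%. On this measure *Mef2d* was thus above *Mef2a* in the A libraries and below it in the B libraries. Averaged over the libraries *Mef2a* held 51.6%, and it held 69.7% with the longest coding transcript as the length. The ELK family did not follow the letters: *Elk3* held between 78.4% and 79.5% in every library. *Elk1* held 10.9 ± 0.624% with shCTR and 12.6 ± 0.111% with shMettl14, and *Elk4* 9.63 ± 0.709% and 8.88 ± 0.0337% (SD, n = 2 libraries each).

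**Figure D4:**
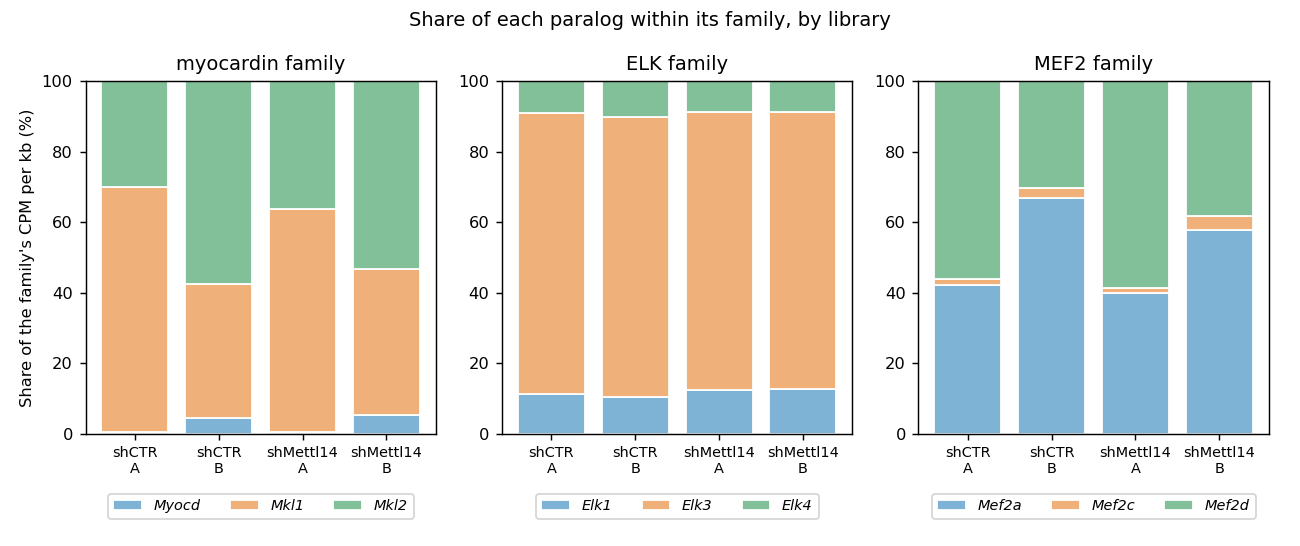
Share in percent of each paralog in the summed CPM per kb of its family, as stacked bars for the 4 libraries, in panels for the myocardin, ELK and MEF2 families. The boundary between *Mkl1* and *Mkl2* and that between *Mef2a* and *Mef2d* differ between A and B, and *Elk3* stays between 78.4% and 79.5%.

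The genes whose log2 CPM over the 4 libraries lay nearest to a member were looked up among 9098 genes with a mean of at least 10 CPM, by Euclidean distance after centring. Nearest to *Srf* were *Get4*, *Epn1* and *Fam214b*, at distances of 0.039 to 0.040. Those nearest to *Myocd* were farther off, *Thsd4* at 0.13, *Itga4* at 0.32 and *Ptprz1* at 0.53. *Mkl1* was nearest to *Chst11*, *Sqrdl* and *Tbx1* (0.016 to 0.057) and *Mkl2* to *Cstf2*, *Zfp143* and *Gpatch8* (0.062 to 0.078). Nearest to *Elk1* were *Alkbh5*, *Scamp1* and *Bbip1* (0.023 to 0.036), and nearest to *Elk3* were *Camta2*, *Mfn2* and *Fbxo22* (0.014 to 0.025). *Elk4* had *Nkiras1*, *Mcl1* and *Timm44* beside it (0.0074 to 0.019), of which *Mcl1* is on the list of ELK-SRF targets. *Mef2a* lay nearest to *Ifi204*, *Plvap* and *Cobll1* (0.076 to 0.11), *Mef2c* to *Unc13d*, *Pcolce2* and *Hcls1* (0.092 to 0.17) and *Mef2d* to *E2f6*, *Arhgef10l* and *Trmt61a* (0.015 to 0.021). With 4 libraries many genes lie close together, and these likenesses are descriptions.

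Of the 18 listed partners of SRF and myocardin, 17 were tested, 0 had an adjusted p under 0.05 in edgeR, 10 were lower and 7 higher, and the median log2 fold change was −0.10 (−0.22 without shCTR A and −0.053 without shCTR B). *Fhl2*, a LIM protein that binds SRF and is also its target, was at 81.1 and 53.1 CPM in shCTR A and B and at 46.9 and 47.3 CPM in shMettl14 A and B, a log2 fold change of −0.51 (standard error 0.27). *Csrp1*, a LIM protein of smooth muscle that bridges SRF and GATA factors, differed by −0.40 (standard error 0.19) and *Gata6* by −0.33 (standard error 0.25). *Klf4*, which opposes the SRF and myocardin complex, differed by −0.10 (standard error 0.44), and *Hdac4*, a class IIa deacetylase that restrains MEF2, by 0.11 (standard error 0.27). An antisense gene covers 22.4% of the exon bases of *Hdac4*. Both shMettl14 libraries were below both shCTR libraries in 5 of the 17 tested partners, *Fhl2* and *Csrp1* among them, against 13.3% of all tested genes. They were above both in 1, against 14.7%.

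Of 22 cytoskeletal and contractile targets of MRTF and SRF, 0 had an adjusted p under 0.05 in edgeR. In this list 20 genes were lower and 2 higher, and the median log2 fold change was −0.44 (−0.47 within A and −0.20 within B), against 0.0094 for all tested genes. Within both letters 16 were lower, against 27.7% of all tested genes, and in 9 both shMettl14 libraries were below both shCTR libraries, against 13.3%. The median was −0.16 without shCTR A. *Acta2*, which encodes smooth muscle α-actin, was at 3547 and 2799 CPM in shCTR A and B and at 2171 and 2073 CPM in shMettl14 A and B, a log2 fold change of −0.58 (standard error 0.21). Both shMettl14 libraries were below both shCTR libraries. *Tagln*, which encodes SM22α, was at 2333 and 2449 CPM with shCTR and 1616 and 2254 CPM with shMettl14, a log2 fold change of −0.31 (standard error 0.23). Antisense genes cover 67.9% of the exon bases of *Tagln* and 25.5% of those of *Vcl*. *Cnn1*, which encodes calponin, differed by −0.51 (standard error 0.33) and *Myh11* by −0.51 (standard error 0.76). The cytoskeletal targets *Vcl* and *Flna* differed by 0.020 (standard error 0.20) and −0.036 (standard error 0.18). At an unadjusted p under 0.05 from edgeR 3 genes were lower, *Acta2*, *Cnn2* (−0.61, standard error 0.19) and *Tgfb1i1* (−0.59, standard error 0.20), against 1.01% of all tested genes, the last 2 named after their values were seen. None of the 22 was higher at that level, against 0.656% of all tested genes. Of the 18 striated muscle markers, 13 could be tested and 13 were lower in the fit, against 9230 of the 18916 tested genes. Within both letters 8 were lower, against 27.7% of all tested genes, and 0 passed the adjusted threshold in edgeR. At an unadjusted p under 0.05 from edgeR 4 were lower, *Myh4*, *Ckm*, *Pln* and *Actc1*. *Myh4*, *Ckm* and *Pln* passed the low-count filter only through shCTR, at 625 and 30, 156 and 13, and 92 and 14 counts in A and B. In shMettl14 A and B they had 0 and 0, 0 and 4, and 4 and 8 counts. *Ryr2* likewise passed only through shCTR, at 29 and 17 counts against 9 and 8 with shMettl14. *Actc1* had 103 and 39 counts in shCTR A and B and 4 and 20 in shMettl14 A and B. A lower value of the genes that passed only through shCTR followed from the filter. The counts of lower striated muscle markers include these genes, so setting those counts against all tested genes decides nothing. The part of the striated muscle markers in the values of the 22 targets was not tested.

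**Figure D5:**
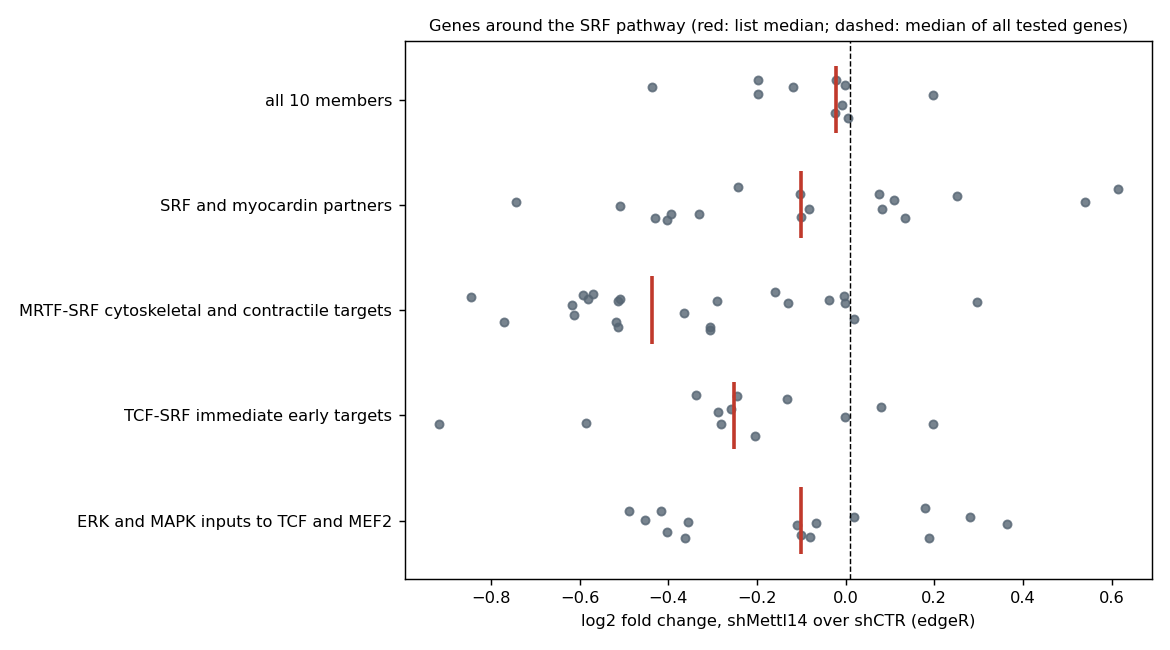
Log2 fold change (shMettl14 over shCTR, edgeR) of each tested gene of the 10 members and of 4 lists of genes around them, with a red line at each list's median and a dashed line at the median of all tested genes. The median of the 10 members lies at −0.022 and that of the MRTF-SRF targets at −0.44.

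Of 12 immediate early targets of ELK and SRF, *Srf* among them, 0 had an adjusted p under 0.05 in edgeR and 0 an unadjusted p under 0.05, against 1.67% of all tested genes. In this list 10 were lower and 2 higher, 8 were lower within both letters, against 27.7% of all tested genes, and the median log2 fold change was −0.25 (−0.10 without shCTR A, −0.49 without shCTR B, −0.48 without shMettl14 A and −0.13 without shMettl14 B). *Egr1*, a zinc finger factor induced within minutes by serum, was at 401 and 335 CPM in shCTR A and B and at 304 and 317 CPM in shMettl14 A and B, a log2 fold change of −0.24 (standard error 0.20). *Fos*, the classical target of the ternary complex, was at 94.0 and 105 CPM with shCTR and 86.9 and 123 CPM with shMettl14 in A and B, and its groups overlapped. *Ier2* differed by −0.34 (standard error 0.25) and *Mcl1*, an inhibitor of apoptosis, by −0.13 (standard error 0.18).

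Of 15 genes of the ERK and MAPK inputs to ELK and MEF2, 0 had an adjusted p under 0.05 in edgeR and 0 an unadjusted p under 0.05, against 1.67% of all tested genes. Of these 10 were lower and 5 higher, each with the same sign within both letters (against 27.7% of all tested genes lower and 30.0% higher within both), and the median log2 fold change was −0.10 (0.020 without shCTR A, −0.23 without shCTR B and −0.30 without shMettl14 A). *Mapk3*, which encodes ERK1, was at 269 and 250 CPM in shCTR A and B and at 200 and 189 CPM in shMettl14 A and B, a log2 fold change of −0.42 (standard error 0.19), with no overlap between the groups. *Mapk7*, which encodes the MEF2 kinase ERK5, differed by −0.080 (standard error 0.26). *Dusp6*, an ERK phosphatase that itself responds to ERK activity, was at 69.7 and 72.8 CPM with shCTR and 70.8 and 73.6 CPM with shMettl14 in A and B, and both groups and both letters were alike.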

How the data were processed

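The mRNA-seq libraries (2 per group) were prepared by the authors with a strand-specific kit from poly-A-enriched RNA, mapped to mm10 (GRCm38.p6) with STAR and counted with featureCounts. The deposited file holds these raw counts. The strand setting of the counting and the treatment of reads that map to several places are not given in the sources used here. Totals per library ranged from 114343653 to 124815868 counts.

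Genes were kept by filterByExpr (18916 genes), normalized by TMM and fitted by edgeR 4.0.16 (robust quasi-likelihood, group only, R 4.3.3), with Benjamini-Hochberg adjustment and a threshold of 0.05. DESeq2 1.42.0, named by the authors, was an alternative. A standard error is the size of the fitted log2 change over the root of its F statistic. Ratios within a letter or a hairpin come from log2 CPM (prior count 2). Gene lengths and overlaps came from GENCODE M21, promoters from RefSeq (GRCm38.p6). Python 3.11.15, pandas 2.3.3 and scipy 1.17.1 did the rest.

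The members and gene lists were chosen with earlier results of these data known. Named genes were *Mettl14*, the members, genes fixed per list whatever their change, and the 3 genes nearest to each member. The longest-transcript length was added after values were seen. The fits were run on simulated counts with planted changes larger than any fitted for the members. Such a run checks the code and does not show how well small changes are found. Protein sequences were not used here. Some pathway genes are not reported here.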

Additional observations from a re-analysis of the deposited data

How the results depend on the processing

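None of the 10 genes had an adjusted p under 0.05 under any of the 10 alternatives, in which the lowest was 0.52 (edgeR with the replicate block, *Mef2a*), and none of the listed pathway genes was called either. The changes of *Mkl1*, *Mkl2*, *Elk1*, *Elk3*, *Elk4* and *Mef2a* kept their direction under every setting with 4 libraries. The log2 fold change of *Srf* turned to 0.019 with upper-quartile factors, 0.0049 without the filter and 0.010 with at least 10 counts in every library. That of *Myocd* turned to 0.0015 with upper-quartile factors and 0.0067 without the filter, that of *Mef2c* to −0.0054 with RLE factors, and that of *Mef2d* to 0.010, 0.0022 and 0.0030 with upper-quartile factors, no filter and at least 10 counts. With the replicate block, in which A and B are terms of the fit, *Srf* was at 0.054 (standard error 0.17) and *Myocd* at 0.27 (standard error 0.28). *Mef2c* was at −0.063 (standard error 0.18) and *Mef2a* at −0.36 (standard error 0.17, edgeR unadjusted p = 0.063). These standard errors were smaller than those of the fit by group only. With the block edgeR called 9 of all tested genes in place of 0 (1941 at an unadjusted p under 0.05 in place of 315). Libraries of the same letter deviated together (correlation 0.578 across genes), but no label says that a letter marks 1 culture. DESeq2 called 5 genes, *Mettl14*, *Chst12*, *Cbfb*, *Atp6v1a* and the cardiac myosin gene *Myh6*, which was counted in shCTR A only.

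With each library left out in turn, where a lone library is assumed to vary like the pair, the values ranged from −0.44 to 0.62 for *Srf*, −2.05 to 2.78 for *Myocd*, −0.73 to 0.27 for *Mkl1*, −0.60 to 0.37 for *Mkl2*, 0.079 to 0.32 for *Elk1*, −0.084 to 0.047 for *Elk3*, −0.14 to −0.090 for *Elk4*, −0.92 to 0.31 for *Mef2a*, −1.07 to 0.87 for *Mef2c* and −0.21 to 0.17 for *Mef2d*. The number of all genes called ranged from 0 to 1 (*Alb*, without shCTR B). List medians ranged from −0.22 to −0.053 (partners), −0.56 to −0.16 (MRTF-SRF targets), −0.49 to −0.10 (ELK-SRF targets) and −0.30 to 0.020 (MAPK). The level of *Elk4* with shCTR was 3.84 CPM per kb and became 3.69 with CPM on library totals. Without gene length the family shares were 13.1% for *Elk1*, 74.6% for *Elk3*, 12.3% for *Elk4*, 69.8% for *Mef2a* and 26.5% for *Mef2d*, and with the longest coding transcript 15.3%, 73.2%, 11.5%, 69.7% and 27.0%. The causes of these shifts were not tested. With 2 libraries per group the spread is poorly known, and *Myocd* in letter A also rests on few counts (62 and 109).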
